A study of Schizosaccharomyces pombe with 6 samples.

Results

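Long non-coding RNAs (lncRNAs) that lie alone in their locus were examined in fission yeast (*Schizosaccharomyces pombe*) cells under heat stress, without the chaperones Mas5 or Ssa2, or with excess Hsf1. The deposited tables listed 7008 genes, of which 1540 had an SPNCRNA identifier, the series of names for non-coding RNAs of this yeast. An lncRNA was taken where no other listed gene had the same locus entry, which held for 243 of them, and where it lay outside an interval around each centromere (140 kb on chromosomes I and II and 170 kb on chromosome III), which removed 36. This left 207 lncRNAs, with 97 on chromosome I, 68 on chromosome II and 42 on chromosome III. The choice used no measured value. The other 1297 SPNCRNA identifiers shared a locus with another gene, and the 1739 protein coding genes alone in their locus served for comparison.

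RNAseq was done on polyadenylated RNA from 6 cultures, with 1 library per condition. Heat-stressed wild type cells were grown at 24°C in rich medium (YES) and then held for 15 min at 36°C. The *mas5Δ* cells, which lack an Hsp40 (DNAJ) co-chaperone, and the *ssa2Δ* cells, which lack an Hsp70 chaperone, grew in the same medium at 24°C. All 3 were set against 1 library of wild type cells in rich medium at 24°C. The *nmt1:hsf1* cells, which overexpress the heat shock transcription factor Hsf1 from the thiamine-repressible *nmt1* promoter, grew at 24°C in minimal medium without thiamine (MM Thi-) and were set against wild type cells in that medium. The tables give FPKM, the fragments of a gene divided by its length in kilobases and by the mapped fragments of the library, scaled separately in each table. The same wild type library therefore has other values in each table: over the 177 lncRNAs above 0 the median ratio to its values beside heat stress was 1.13 beside *mas5Δ* and 1.02 beside *ssa2Δ*. Ratios were taken only within a table, as log2((FPKM + 1) / (wild type FPKM + 1)), which understates the change of low genes. The depth of the libraries is unknown, no condition has a replicate and no test was made, so a count of genes past 2-fold describes these libraries only.

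None of the tables has sample names on its columns. In the 3 tables of rich medium the first column held the same library up to a scale factor, and wild type cells at 24°C are the only sample these tables share. In the table of minimal medium no label marks which library is which, and the column order of the other tables was followed. Directions given for *nmt1:hsf1* cells rest on that order.

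The labels were checked on the genes they name. *ssa2* stood at 55.0 FPKM in *ssa2Δ* cells, against 2960 FPKM in wild type cells. *mas5*, whose locus entry is shared by 4 listed genes, stood at 36.3 FPKM in *mas5Δ* cells, against 470 FPKM in wild type cells. *hsf1* stood at 922 FPKM in the library taken as *nmt1:hsf1*, against 93.4 FPKM in that taken as wild type in minimal medium. Its locus entry is shared by 3 listed genes. The disaggregase gene *hsp104* had 2907 FPKM in heat-stressed cells, against 43.2 FPKM in wild type cells, and was past 2-fold higher in *mas5Δ* and *ssa2Δ* cells too. In the table of minimal medium it was within 2-fold, with 280 FPKM in the library taken as *nmt1:hsf1*, against 208 FPKM in that taken as wild type, whereas the small heat shock protein gene *hsp16* had 12411 FPKM, against 165 FPKM.

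Most lncRNAs of fission yeast are made by RNA polymerase II, many of them from intergenic promoters or from the promoters of coding genes read in the opposite direction. Many are kept low by the nuclear exosome and its adaptors, among them those that bind meiotic RNAs during growth, and a few are known to act on the transcription of a neighbouring gene. Hsf1 binds heat shock elements (HSEs), arrays of the unit GAA in alternating orientation. The stress-activated factor Atf1 binds the cyclic AMP response element (CRE), whose core is TGACGT.

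Promoter windows were read from the RefSeq genome ASM294v3, from 250 bases before to 50 bases after the annotated start. By locus tag 192 of the 207 lncRNAs matched RefSeq, and 190 of these had the same start and end there as in the deposited tables. Another 3 matched by an older name and 12 did not match. RefSeq called 171 of the matched genes lncRNA, 22 ncRNA, 1 snoRNA and 1, SPNCRNA.46, protein coding. It also placed another gene over 120 of the 207, among them lncRNAs that the tables do not list, so that these were alone in their locus only in the deposited annotation. The library protocol in the labels names no step that keeps strand.

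The CRE was more frequent among the lncRNAs higher under heat than among the rest. Of the 194 windows that could be read, 19 (9.79%) held TGACGT on either strand, against 692 of 12605 windows of all RefSeq genes (5.49%). Among the 30 lncRNAs past 2-fold higher in heat-stressed cells it was in 8 windows (26.7%). It was in 2 of the 34 windows of lncRNAs past 2-fold lower (5.88%) and in 9 of the 130 within 2-fold (6.92%). The 156 protein coding genes alone in their locus that were past 2-fold higher under heat had it in 32 windows (20.5%), against 63 of the 1398 within 2-fold (4.51%). The 8 stretches of 30 bases are shown to make the sites visible, 5′ to 3′ on the strand of the lncRNA, with the CRE in capitals in either orientation.
SPNCRNA.1326 (fbp1-ot2), chrII:201862-201891, minus strand: tcgatcagccatTGACGTcagcgctcgttt
SPNCRNA.988, chrI:4442964-4442993, minus strand: tagtttttcctaTGACGTaagctcttgaac
SPNCRNA.1676, chrII:4146234-4146263, plus strand: caagaatatgacACGTCAagagaagaagca
SPNCRNA.603, chrI:82370-82399, minus strand: ttcttggatggcTGACGTagaattgacttg
SPNCRNA.545, chrII:3933152-3933181, plus strand: ttgtgttcccaaACGTCAagtgccaatcgt
SPNCRNA.810, chrI:2291583-2291612, minus strand: ggagtgcgggcgACGTCAccttgattgact
SPNCRNA.1499, chrII:2265207-2265236, plus strand: tgctacatttgaTGACGTagtatggactgg
SPNCRNA.745, chrI:1573383-1573412, minus strand: aactactaactcACGTCAcacaagagaaca
In fbp1-ot2 the site reads on as a palindrome, so that the same letters lie on both strands. The stretch of SPNCRNA.1676 lies inside the annotated gene of its neighbour *lea1* and that of SPNCRNA.545 inside *mug158*. SPNCRNA.1499, SPNCRNA.810 and SPNCRNA.603 have a divergent nearest gene that was itself past 2-fold higher under heat. These are *opi10* (202 FPKM, against 20.1 FPKM in wild type cells), SPAC4G9.22 (154 FPKM, against 65.5 FPKM) and *ght3* (20.6 FPKM, against 4.14 FPKM). The locus entry of SPAC4G9.22 is shared by 2 listed genes. The nearest genes of the others were within 2-fold. To which gene a site belongs was not tested.

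Among the lncRNAs higher in the other comparisons the CRE was no more frequent than among all 194. It was in 2 of 34 windows of the lncRNAs past 2-fold higher in *mas5Δ* cells (5.88%), 2 of 24 in *ssa2Δ* cells (8.33%) and 2 of 57 in *nmt1:hsf1* cells (3.51%). Among the lncRNAs past 2-fold lower it was in 3 of 16 windows in *mas5Δ* cells (18.8%), 3 of 25 in *ssa2Δ* cells (12.0%) and 6 of 32 in *nmt1:hsf1* cells (18.8%). The protein coding genes past 2-fold higher had it in 15 of 57 windows in *mas5Δ* cells (26.3%), 14 of 90 in *ssa2Δ* cells (15.6%) and 19 of 314 in *nmt1:hsf1* cells (6.05%). These matches are a description of the letters and not of binding.

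**Figure D1:**
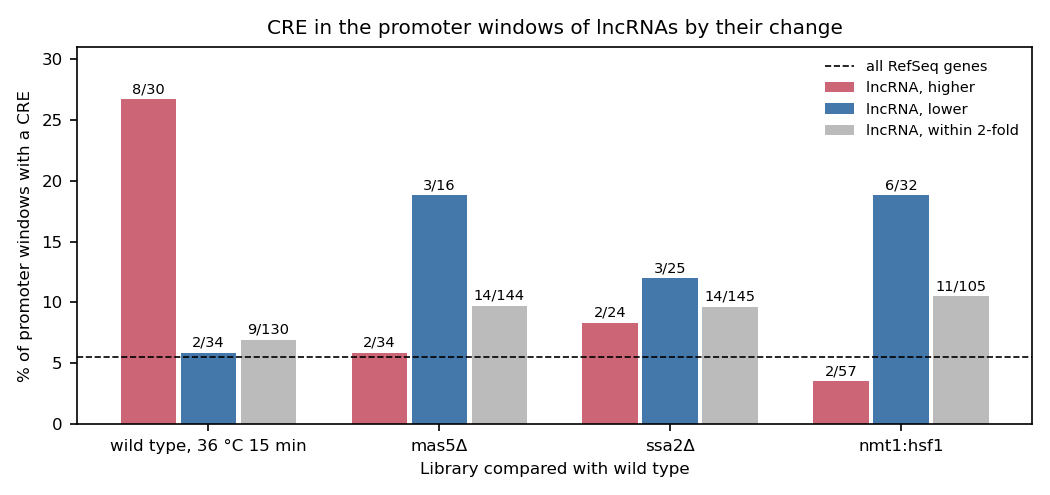
Share of promoter windows with a CRE (TGACGT on either strand, y axis in percent) for lncRNAs past 2-fold higher, past 2-fold lower and within 2-fold of wild type, in each comparison (x axis). Numbers over the bars are windows with the motif of all windows, and the dashed line marks the 5.49% of all RefSeq genes; the lncRNAs higher under heat stand at 26.7%.

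Heat shock elements were few. A run of 3 units was in 67 of the 12605 windows of all genes (0.532%) and in 2 of the 194 lncRNA windows (1.03%). SPNCRNA.472 is shown because it alone of the 2 changed past 2-fold, with the run in capitals on the strand of the lncRNA.
SPNCRNA.472, chrIII:715763-715792, plus strand: cccaaattTTCTCGAAATTTCccccgactt
SPNCRNA.472 had 6.52 FPKM in heat-stressed cells, against 1.12 FPKM in wild type cells, and 8.75 FPKM in *nmt1:hsf1* cells, against 1.36 FPKM in wild type cells of minimal medium. In *mas5Δ* cells it had 1.30 FPKM, against 1.26 FPKM in wild type cells, and in *ssa2Δ* cells 0.44 FPKM, against 1.13 FPKM. The other, SPNCRNA.1477, was within 2-fold in all 4 comparisons. The form of 2 units (GAANNTTC or TTCNNGAA, which every longer run contains) was in 38 of the 194 windows (19.6%), against 21.6% of all genes. It was in 10 of the 30 windows of lncRNAs higher under heat (33.3%), in 1 of the 34 of those lower (2.94%) and in 27 of the 130 within 2-fold (20.8%). Windows of fbp1-ot2, SPNCRNA.774, SPNCRNA.855 and SPNCRNA.988 were among the 10. Of the lncRNAs higher in *ssa2Δ* cells 8 of 24 windows held it (33.3%), against 25 of 145 of those within 2-fold (17.2%). In *mas5Δ* cells 9 of 34 held it (26.5%), against 26 of 144 (18.1%). The protein coding genes past 2-fold higher held it in 26.3% of windows under heat, 21.1% in *mas5Δ*, 32.2% in *ssa2Δ* and 21.0% in *nmt1:hsf1* cells. Of the lncRNAs higher in *nmt1:hsf1* cells, 14 of 57 windows held it (24.6%), against 20 of 105 of those within 2-fold (19.0%). The TATA box TATAAA on either strand was in 44.8% of the lncRNA windows, against 45.3% of all genes, and ACGCGT, the site of the G1/S factor MBF, was in 1.55%, against 2.46%.

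The lncRNAs were low. Their median was 3.22 FPKM in heat-stressed cells, 4.94 FPKM in *mas5Δ* cells, 3.71 FPKM in *ssa2Δ* cells and 3.24 FPKM in wild type cells of rich medium (heat stress table). In minimal medium it was 4.02 FPKM in *nmt1:hsf1* cells and 2.89 FPKM in wild type cells. The lncRNAs that share a locus had a median of 5.24 FPKM in wild type cells of rich medium, and the protein coding genes alone in their locus had 48.5 FPKM. Of the 207 lncRNAs, 47 reached 10 FPKM in that wild type library (22.7%), against 1552 of 1739 protein coding genes (89.2%). Listed at 0 were 41 lncRNAs in heat-stressed cells and 30 in wild type cells of rich medium, and 31 in *nmt1:hsf1* cells and 46 in wild type cells of minimal medium. Across the 6 libraries 144 were above 0 in every one, 52 were at 0 in some and 11 were at 0 in all.

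Their length ran between 56 and 2179 bases with a median of 507, and 34 were shorter than 200 bases, the usual lower limit for an lncRNA. In each comparison the log2 ratio farthest from 0 was that of 1 of these 34. Of the 34, 19 were at 0 in some libraries and above 0 in others, against 33 of the 173 longer ones. SPNCRNA.310 (75 bases, chrI:5543364-5543438) was listed at 0 in heat-stressed cells and at 332 FPKM in *mas5Δ* cells and 976 FPKM in *ssa2Δ* cells, against 143 FPKM in wild type cells (heat stress table). In minimal medium it was at 0 in both libraries. SPNCRNA.397 (99 bases) was at 0 in all libraries of rich medium except *ssa2Δ*, with 39.1 FPKM, but had 251 FPKM in *nmt1:hsf1* cells and 246 FPKM in wild type cells of minimal medium. SPNCRNA.408 (78 bases) was above 0 only in *nmt1:hsf1* cells, at 388 FPKM, and SPNCRNA.450 (81 bases) only in *mas5Δ* cells, at 88.1 FPKM. SPNCRNA.460 (86 bases) had 59.6 FPKM in *mas5Δ*, 90.2 FPKM in *ssa2Δ* and 90.3 FPKM in *nmt1:hsf1* cells and was at 0 in the other 3 libraries. A value of 0 in these tables can be a failed estimate, so no fold change is given for them.

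Short lncRNAs also made up the 5 largest falls under heat. SPNCRNA.273, SPNCRNA.286, SPNCRNA.310, SPNCRNA.463 and SPNCRNA.464, of 75 to 122 bases, were all listed at 0 there, against 46.2 to 143 FPKM in wild type cells. In *ssa2Δ* cells SPNCRNA.273, SPNCRNA.286 and SPNCRNA.463 were at 0 as well, against 107, 66.6 and 46.9 FPKM in wild type cells. SPNCRNA.464 had 12.6 FPKM in *mas5Δ* cells, against 53.5 FPKM in wild type cells, and 0 in *nmt1:hsf1* cells, against 20.2 FPKM. SPNCRNA.286 went the other way in *nmt1:hsf1* cells, at 76.9 FPKM against 0 in wild type cells.

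**Figure D2:**
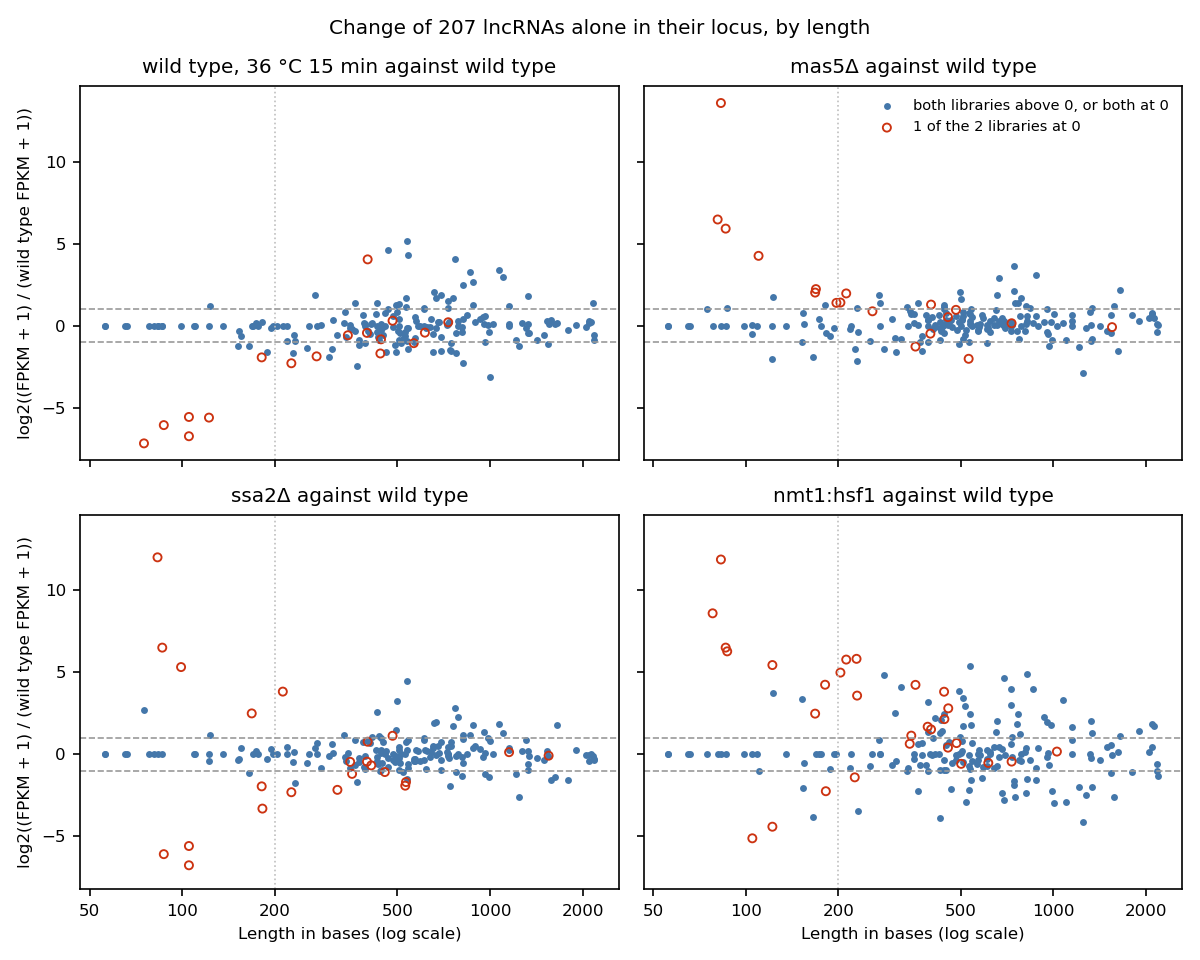
log2((FPKM + 1) / (wild type FPKM + 1)) of each of the 207 lncRNAs (y axis) by its length in bases (x axis, log scale) in the 4 comparisons. Open red circles had 1 of the 2 libraries at 0, dashed lines mark 2-fold and the dotted line 200 bases; the ratio farthest from 0 in each panel lies left of the dotted line and has a library at 0.

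The highest of all was SPNCRNA.129 (83 bases, chrIII:115394-115476), which RefSeq did not match. It was listed at 12229 FPKM in *mas5Δ* cells, 4140 FPKM in *ssa2Δ* cells and 0 in heat-stressed cells, against 0 in wild type cells, and at 3777 FPKM in *nmt1:hsf1* cells, against 0 in wild type cells of minimal medium. The nearest gene, *ura4*, which encodes orotidine 5′-phosphate decarboxylase and is a common selection marker, lies 112 bases away. It had 116 FPKM in *mas5Δ* cells, 58.8 FPKM in *ssa2Δ* cells and 0 in heat-stressed cells, against 0 in wild type cells, and 95.1 FPKM in *nmt1:hsf1* cells, against 0.22 FPKM in wild type cells of minimal medium. The study's strain list gives *ura4+* as the marker of both gene deletions and *ura4-D18*, a deletion allele, in most backgrounds. Which of its strains were sequenced is not given in the sources used here. The part of the marker in the values of SPNCRNA.129, the highest FPKM of any of the 207 lncRNAs in all 3 mutants, was not tested.

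Under heat, 30 of the 207 lncRNAs (14.5%) were past 2-fold higher and 37 (17.9%) past 2-fold lower. Over all 7008 genes the shares were 11.7% higher and 8.58% lower, and over the protein coding genes alone in their locus 8.97% and 10.6%. In *mas5Δ* cells 39 (18.8%) were higher and 17 (8.21%) lower, beside 5.69% and 4.11% of all genes and 3.28% and 3.39% of the protein coding genes. In *ssa2Δ* cells 27 (13.0%) were higher and 27 lower, beside 8.96% and 3.40% of all genes and 5.18% and 2.24% of the protein coding genes. In *nmt1:hsf1* cells 61 (29.5%) were higher and 35 (16.9%) lower, beside 24.9% and 14.7% of all genes and 18.1% and 17.3% of the protein coding genes. The median log2 ratio of the lncRNAs was 0.10 in *mas5Δ* cells and 0.00 in the other comparisons. In each table between 16 and 27 lncRNAs were at 0 in both libraries and so have a ratio of 0. Part of the counts rests on entries at 0. Of the higher lncRNAs, 1 under heat, 10 in *mas5Δ*, 6 in *ssa2Δ* and 18 in *nmt1:hsf1* cells were at 0 in wild type cells. Of the lower ones, 10 under heat, 2 in *mas5Δ*, 11 in *ssa2Δ* and 4 in *nmt1:hsf1* cells were at 0 in the stressed or mutant library.

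Level was taken into account in part, with bins of the wild type FPKM in the medium that a comparison did not use. That value does not enter the ratio. This measure was chosen after seeing the data. Bins of the mean of the compared libraries are not set side by side here, since a low lncRNA enters a high bin through the change itself: of the 12 lncRNAs past 2-fold higher under heat with a mean between 10 and 100 FPKM, 9 had less than 10 FPKM in wild type cells. Between 10 and 100 FPKM in wild type cells of minimal medium, 16.2% of 37 lncRNAs were past 2-fold higher and 29.7% past 2-fold lower under heat, beside 7.02% and 11.8% of 1012 protein coding genes of that level. In *mas5Δ* cells the shares were 18.9% and 13.5% of these 37 lncRNAs, beside 0.988% and 3.26% of the protein coding genes. In *ssa2Δ* cells they were 13.5% and 21.6%, beside 3.46% and 2.08%. In *nmt1:hsf1* cells, with bins from wild type cells of rich medium, 21.1% of 38 lncRNAs were higher, beside 24.0% of 1040 protein coding genes, and 31.6% were lower, beside 8.75%. In this bin the lncRNAs therefore had the larger share past 2-fold in both directions except among genes higher in *nmt1:hsf1* cells. The bin does not match level fully. Some lncRNAs higher in it had less than 10 FPKM in the wild type cells they were compared with. They were 3 of 6 under heat, 3 of 7 in *mas5Δ*, 3 of 5 in *ssa2Δ* and 4 of 8 in *nmt1:hsf1* cells. Among the protein coding genes they were 7 of 71, 2 of 10, 8 of 35 and 6 of 250, in the same order.

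Between 1 and 10 FPKM the shares higher lay closer in the 3 comparisons of rich medium. Under heat 19.3% of 88 lncRNAs were higher and 18.2% lower, beside 17.9% and 7.69% of 78 protein coding genes. In *mas5Δ* cells the shares were 17% and 9.09%, beside 14.1% and 5.13%, and in *ssa2Δ* cells 14.8% and 10.2%, beside 8.97% and 5.13%. Both shares were below those of protein coding genes in *nmt1:hsf1* cells, at 32.4% and 14.7% of 102 lncRNAs, beside 35.8% and 16.0% of 106.

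At equal FPKM a short gene rests on fewer fragments, so the same wild type FPKM was also multiplied by length in kilobases, which is close to proportional to the fragments of a gene. Between 10 and 100 on that scale, 16.7% of 30 lncRNAs were higher and 23.3% lower under heat, beside 8.09% and 11.4% of 717 protein coding genes. In *mas5Δ* cells 13.3% were higher and 13.3% lower, beside 1.12% and 3.07%, and in *ssa2Δ* cells 20% and 23.3%, beside 4.88% and 1.81%. In *nmt1:hsf1* cells 16.1% of 31 were higher and 32.3% lower, beside 28.8% and 9.34% of 792. Between 1 and 10, where more of the lncRNAs lie than between 10 and 100, the shares higher were close in all 4 comparisons. Under heat 17.5% of 80 lncRNAs were higher and 18.8% lower, beside 15.9% and 12.7% of 63 protein coding genes. In *mas5Δ* cells the shares were 21.2% and 10.0%, beside 22.2% and 7.94%, in *ssa2Δ* cells 11.2% and 8.75%, beside 9.52% and 9.52%, and in *nmt1:hsf1* cells 28.0% and 17.2% of 93, beside 27.3% and 11.7% of 77. Below 1, the largest bin of lncRNAs in the comparisons of rich medium, the shares higher were not close. Under heat 11.7% of 94 lncRNAs were higher and 16.0% lower, beside 2.56% and 3.85% of 78 protein coding genes. In *mas5Δ* cells the shares were 19.1% and 5.32%, beside 5.13% and 1.28%, and in *ssa2Δ* cells 12.8% and 11.7%, beside 5.13% and 5.13%. In *nmt1:hsf1* cells they were 38% and 7.59% of 79, beside 16.2% and 5.00% of 80. This bin does not match level fully either. At 0 in a compared library were 39 of its lncRNAs under heat, 30 in *mas5Δ*, 40 in *ssa2Δ* and 43 in *nmt1:hsf1* cells. Among its protein coding genes 51, 48, 52 and 56 were, in the same order.

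**Figure D3:**
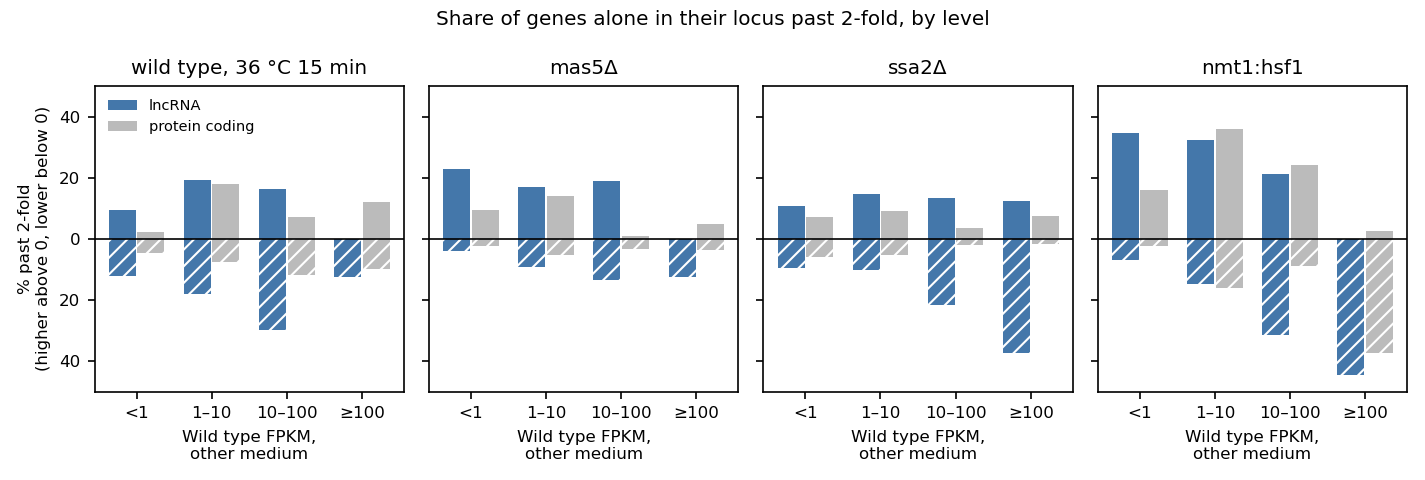
Percent of genes alone in their locus past 2-fold higher (solid, above 0) and past 2-fold lower (hatched, below 0) for lncRNAs (blue) and protein coding genes (grey), by the wild type FPKM in the medium the comparison did not use (x axis), in the 4 comparisons. Between 10 and 100 FPKM the lncRNA bars are longer than the protein coding bars except for higher genes in *nmt1:hsf1* cells (21.1% beside 24.0%); the bin of at least 100 FPKM holds only 8 or 9 lncRNAs.

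By length, 7.00% of the 100 lncRNAs under 500 bases were past 2-fold higher under heat and 22.0% lower, beside 13.3% and 6.67% of 90 protein coding genes of that length. Of the 75 lncRNAs between 500 and 1000 bases 24.0% were higher and 16.0% lower, beside 6.50% and 6.50% of 246 protein coding genes. The lncRNAs under 500 bases leaned the other way in *mas5Δ* cells, at 24.0% higher and 11.0% lower, beside 6.67% and 1.11% of the protein coding genes. They did so in *nmt1:hsf1* cells too, at 33.0% and 12.0%, beside 15.6% and 26.7%. In *ssa2Δ* cells they stood at 14.0% and 13.0%, beside 11.1% and 4.44%. Between 500 and 1000 bases lncRNAs also leaned higher in *mas5Δ* cells (16.0% and 4.00%) and *nmt1:hsf1* cells (26.7% and 17.3%). Of the 100 under 500 bases, 39 under heat, 29 in *mas5Δ*, 39 in *ssa2Δ* and 47 in *nmt1:hsf1* cells were at 0 in a compared library.

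Among lncRNAs with a mean of at least 10 FPKM, the 5 highest rises under heat were those of SPNCRNA.855, fbp1-ot2, SPNCRNA.1549, SPNCRNA.774 and SPNCRNA.1676. fbp1-ot2 (SPNCRNA.1326, chrII:201348-201812, minus strand) is named for *fbp1*, the gluconeogenic fructose-1,6-bisphosphatase gene, whose upstream lncRNAs are known to open its chromatin under glucose starvation. It had 58.4 FPKM in heat-stressed cells, against 1.41 FPKM in wild type cells (log2 ratio 4.62). It had 2.25 FPKM in *mas5Δ* cells, against 1.59 FPKM in wild type cells, 1.11 FPKM in *ssa2Δ* cells, against 1.43 FPKM, and 0.57 FPKM in *nmt1:hsf1* cells, against 5.70 FPKM in wild type cells of minimal medium. It was thus high in the heat-stressed library alone. *fbp1* itself had 14.4 FPKM in heat-stressed cells, against 8.75 FPKM in wild type cells (log2 ratio 0.66). Its locus entry is shared by 3 listed genes.

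SPNCRNA.1549 (chrII:2789715-2790257, plus strand) lies head to head with *gpx1*, the glutathione peroxidase gene, with 100 bases between the loci. The locus entry of *gpx1* is shared by 3 listed genes, so the distance is to that shared locus. The lncRNA had 29.7 FPKM in heat-stressed cells, against 0.55 FPKM in wild type cells, and *gpx1* had 3355 FPKM, against 199 FPKM. In *mas5Δ* cells the lncRNA had 0.59 FPKM, against 0.62 FPKM in wild type cells, while *gpx1* had 563 FPKM, against 223 FPKM. In *ssa2Δ* cells the lncRNA had 1.93 FPKM, against 0.56 FPKM, and *gpx1* 458 FPKM, against 202 FPKM. The pair was past 2-fold higher together under heat. In *ssa2Δ* cells the log2 ratio of the lncRNA was 0.91, which became 1.62 with a pseudocount of 0.1, so whether it passed 2-fold there depends on the pseudocount.

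SPNCRNA.988 (chrI:4442520-4442919, minus strand), named here for its CRE after its values were seen, had 15.5 FPKM in heat-stressed cells and was listed at 0 in both wild type libraries. It had 1.45 FPKM in *mas5Δ*, 0.71 FPKM in *ssa2Δ* and 1.88 FPKM in *nmt1:hsf1* cells.

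Another 3 lncRNAs were high both under heat and with excess Hsf1. SPNCRNA.855 (chrI:2829719-2830254, minus strand) had 66.0 FPKM in heat-stressed cells, against 0.90 FPKM in wild type cells, and 80.8 FPKM in *nmt1:hsf1* cells, against 0.94 FPKM in wild type cells of minimal medium. It also had 41.4 FPKM in *ssa2Δ* cells, against 0.92 FPKM in wild type cells, but 1.17 FPKM in *mas5Δ* cells, against 1.02 FPKM. Its head-to-head neighbour *spd2*, which encodes an inhibitor of ribonucleotide reductase, lies 45 bases away in a locus shared by 4 genes. *spd2* had 513 FPKM in heat-stressed cells, against 172 FPKM in wild type cells, and 501 FPKM in *ssa2Δ* cells, against 175 FPKM, but 397 FPKM in *nmt1:hsf1* cells, against 343 FPKM.

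SPNCRNA.774 (chrI:1920876-1921644, plus strand) starts 8 bases from the locus of *pss1*, a heat shock protein gene on the opposite strand. It had 59.5 FPKM in heat-stressed cells, against 2.61 FPKM in wild type cells, 9.52 FPKM in *mas5Δ* cells, against 2.94 FPKM, and 24.8 FPKM in *ssa2Δ* cells, against 2.65 FPKM. It had 11.4 FPKM in *nmt1:hsf1* cells, against 1.23 FPKM in wild type cells of minimal medium. It was therefore past 2-fold higher in all 4 comparisons. *pss1* had 1940 FPKM in heat-stressed cells, against 723 FPKM in wild type cells, yet 265 FPKM in *nmt1:hsf1* cells, against 576 FPKM, so the pair moved apart with excess Hsf1.

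SPNCRNA.1676 (chrII:4146300-4147370, plus strand) had 35.8 FPKM in heat-stressed cells, against 2.44 FPKM in wild type cells, 3.13 FPKM in *mas5Δ* cells, against 2.74 FPKM, and 11.7 FPKM in *ssa2Δ* cells, against 2.48 FPKM. It had 29.0 FPKM in *nmt1:hsf1* cells, against 2.04 FPKM in wild type cells of minimal medium. Its divergent neighbour *lea1*, a gene of the U2 snRNP 21 bases away, was within 2-fold in every comparison, with log2 ratios between -0.25 and 0.76.

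**Figure D4:**
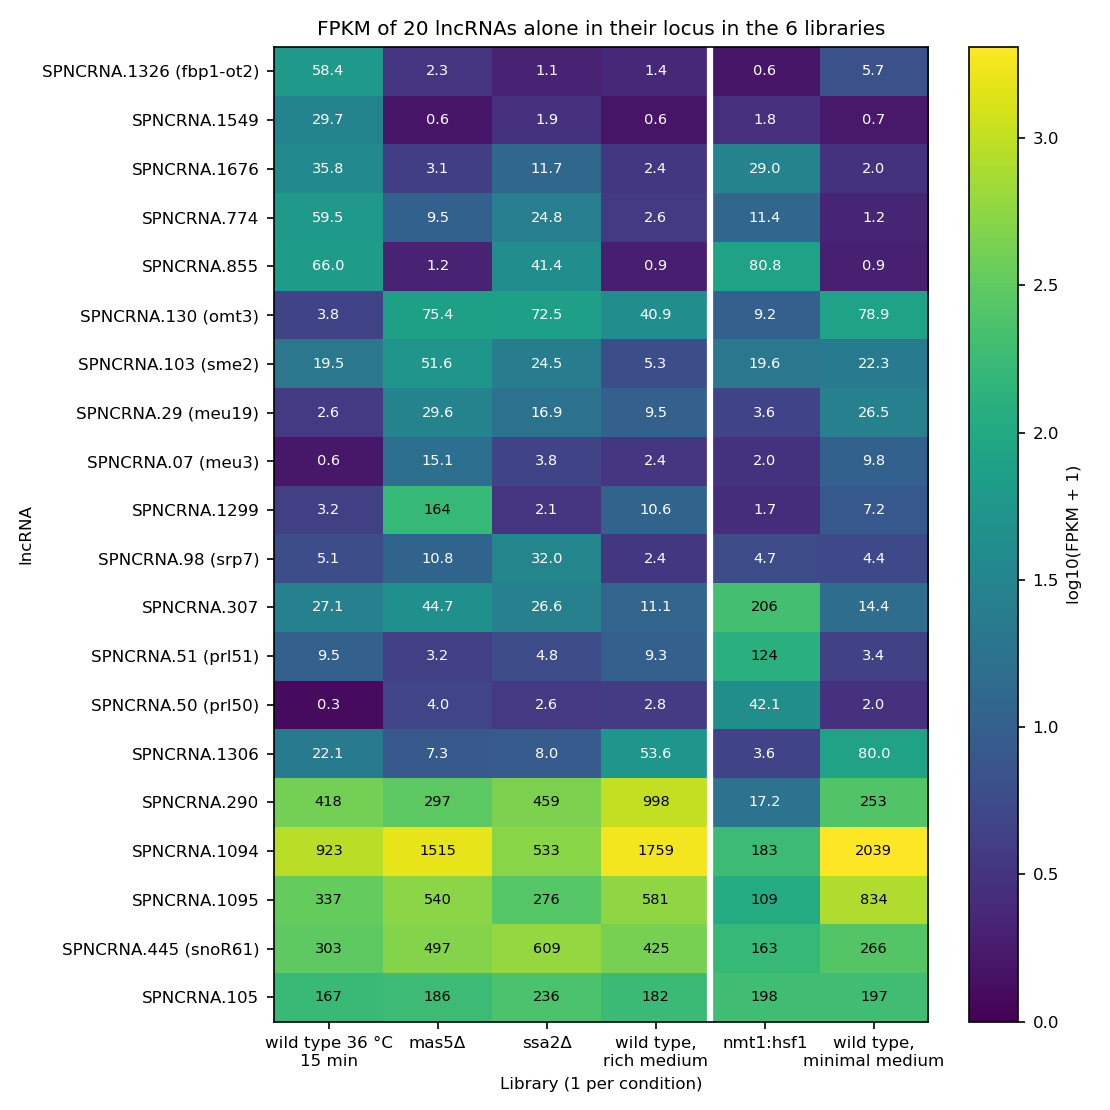
FPKM (numbers, with colour on a log10(FPKM + 1) scale) of 20 lncRNAs (rows) in the 6 libraries (columns), those of rich medium left of the white line and those of minimal medium right of it, with wild type cells of rich medium shown from the heat stress table. The upper 5 rows are high under heat, SPNCRNA.1299 is high in *mas5Δ* alone, prl50 and prl51 in *nmt1:hsf1* alone, and SPNCRNA.105 differs little.

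Of the 4 lncRNAs named for meiosis, *sme2*, *omt3*, *meu19* and *meu3*, 1 was past 2-fold higher and 3 lower under heat, 3 were higher and none lower in *mas5Δ* cells, 1 was higher and none lower in *ssa2Δ* cells, and none was higher and 3 were lower in *nmt1:hsf1* cells. Over all genes the shares were between 5.69% and 24.9% higher and between 3.40% and 14.7% lower in these comparisons, and 4 lncRNAs are too few to set against them. *sme2* encodes meiRNA, which holds the meiotic RNA eliminator Mmi1 at its locus and lets meiosis proceed. It had 51.6 FPKM in *mas5Δ* cells, against 5.97 FPKM in wild type cells (log2 ratio 2.92), 24.5 FPKM in *ssa2Δ* cells, against 5.39 FPKM, and 19.5 FPKM in heat-stressed cells, against 5.30 FPKM. In minimal medium it had 19.6 FPKM in *nmt1:hsf1* cells, against 22.3 FPKM in wild type cells. *omt3* (SPNCRNA.130) had 3.77 FPKM in heat-stressed cells, against 40.9 FPKM in wild type cells (log2 ratio -3.14), and 9.20 FPKM in *nmt1:hsf1* cells, against 78.9 FPKM in wild type cells of minimal medium. In *mas5Δ* cells it had 75.4 FPKM, against 46.1 FPKM in wild type cells, and in *ssa2Δ* cells 72.5 FPKM, against 41.6 FPKM, both within 2-fold. *meu19* had 2.60 FPKM in heat-stressed cells, against 9.46 FPKM, 29.6 FPKM in *mas5Δ* cells, against 10.6 FPKM, 16.9 FPKM in *ssa2Δ* cells, against 9.61 FPKM, and 3.59 FPKM in *nmt1:hsf1* cells, against 26.5 FPKM. *meu3* had 0.65 FPKM in heat-stressed cells, against 2.35 FPKM, 15.1 FPKM in *mas5Δ* cells, against 2.65 FPKM, 3.79 FPKM in *ssa2Δ* cells, against 2.39 FPKM, and 2.02 FPKM in *nmt1:hsf1* cells, against 9.78 FPKM. RefSeq describes another 3 of the lncRNAs as expressed in meiosis. None of these was lower in any comparison, SPNCRNA.307 was past 2-fold higher in all 4, SPNCRNA.352 was above 0 only in *mas5Δ* cells, at 3.70 FPKM, and SPNCRNA.414 only in *nmt1:hsf1* cells, at 42.7 FPKM.

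In *mas5Δ* cells the largest log2 ratio of an lncRNA above 0 in both libraries, with the pseudocount of 1 FPKM, was that of SPNCRNA.1299 (chrIII:2448764-2449506). This lncRNA lies 1566 bases from the listed 28S ribosomal RNA at the right end of the chromosome. It had 164 FPKM in *mas5Δ* cells, against 12.0 FPKM in wild type cells (log2 ratio 3.67). It was past 2-fold lower elsewhere, with 3.22 FPKM in heat-stressed cells, against 10.6 FPKM, 2.11 FPKM in *ssa2Δ* cells, against 10.8 FPKM, and 1.69 FPKM in *nmt1:hsf1* cells, against 7.22 FPKM in wild type cells of minimal medium. SPNCRNA.1466 had 5.64 FPKM in *mas5Δ* cells, against 18.4 FPKM, and SPNCRNA.488 had 5.87 FPKM, against 18.8 FPKM.

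In *ssa2Δ* cells *srp7*, the gene of the 7SL RNA of the signal recognition particle, had 32.0 FPKM, against 2.48 FPKM in wild type cells (log2 ratio 3.25). It had 10.8 FPKM in *mas5Δ* cells, against 2.75 FPKM, and 4.71 FPKM in *nmt1:hsf1* cells, against 4.42 FPKM. 7SL is made by RNA polymerase III and these libraries were selected for poly(A), so they do not measure its abundance. Of the small nucleolar RNA genes, which guide changes to ribosomal RNA, snoR61 (SPNCRNA.445) stayed within 2-fold, with 303, 497 and 609 FPKM in heat-stressed, *mas5Δ* and *ssa2Δ* cells, against 425 FPKM in wild type cells of the heat stress table. In minimal medium snoR61 had 163 FPKM in *nmt1:hsf1* cells, against 266 FPKM in wild type cells. sno530 had 20.8 FPKM in *nmt1:hsf1* cells, against 88.5 FPKM (log2 ratio -2.04), and was within 2-fold in the other comparisons. After selection for poly(A), these values are of polyadenylated RNA from the loci, that of snoR61 being 653 bases long. The abundance of the guide RNAs themselves was not measured. ncRNA.1343 had 21.4 FPKM in heat-stressed cells, against 46.4 FPKM, and 5.48 FPKM in *nmt1:hsf1* cells, against 13.0 FPKM.

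The prl genes, named as poly(A)-bearing RNAs, number 11 among these lncRNAs, and 6 of them were past 2-fold higher in *nmt1:hsf1* cells and none lower, where 29.5% of the 207 lncRNAs and 24.9% of all genes were higher. prl51 had 124 FPKM, against 3.44 FPKM in wild type cells of minimal medium, and prl50 had 42.1 FPKM, against 1.97 FPKM. The neighbour of prl50, *meu13*, which encodes a homologous-pairing protein of meiosis, had 17.4 FPKM in *nmt1:hsf1* cells, against 2.86 FPKM. prl24 had 10.6 FPKM in *nmt1:hsf1* cells, against 4.51 FPKM, and prl36 had 9.59 FPKM, against 3.33 FPKM. prl46 (SPNCRNA.46, the identifier that RefSeq calls protein coding) had 3.45 FPKM and prl68 had 6.02 FPKM in *nmt1:hsf1* cells, and both were listed at 0 in wild type cells of minimal medium. Under heat 1 prl gene was higher and 1 lower. prl21 had 16.0 FPKM in heat-stressed cells, against 3.67 FPKM in wild type cells, and 17.5 FPKM in *mas5Δ* cells, against 4.13 FPKM. prl58 and prl59 were within 2-fold in every comparison, at 33.3 FPKM or more in all libraries. prl11 had 4.64 FPKM in heat-stressed cells, against 4.06 FPKM, and was at 0 in both libraries of minimal medium. prl12 was past 2-fold higher in *mas5Δ* cells, at 5.25 FPKM against 1.89 FPKM, and in *ssa2Δ* cells, at 5.22 FPKM against 1.70 FPKM.

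In *nmt1:hsf1* cells SPNCRNA.117 had 55.8 FPKM and was listed at 0 in wild type cells of minimal medium, while in rich medium it had 2.00 FPKM in heat-stressed cells, against 8.63 FPKM in wild type cells. SPNCRNA.1255 had 2.12 FPKM in *nmt1:hsf1* cells, against 45.2 FPKM (log2 ratio -3.89), but 25.8 FPKM in *ssa2Δ* cells, against 3.41 FPKM.

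Past 2-fold the same way in all 4 comparisons were 7 lncRNAs, of which the 3 with a mean of at least 10 FPKM in every table were SPNCRNA.1306, SPNCRNA.290 and SPNCRNA.307. Since heat stress, *mas5Δ* and *ssa2Δ* were set against a single wild type library, a high or low value in it alone would move those 3 comparisons. SPNCRNA.1306 (chrII:78958-80201, minus strand) had 22.1 FPKM in heat-stressed cells, against 53.6 FPKM in wild type cells, 7.29 FPKM in *mas5Δ* cells, against 60.3 FPKM, and 8.05 FPKM in *ssa2Δ* cells, against 54.4 FPKM. Its level was 3.65 FPKM in *nmt1:hsf1* cells, against 80.0 FPKM in wild type cells of minimal medium. Its divergent neighbour 697 bases away, the cysteine transporter gene SPBPB10D8.01, was past 2-fold lower in all 4 as well, with log2 ratios between -4.24 and -1.23. The locus entry of this neighbour is shared by 3 listed genes, so the distance is to that shared locus.

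SPNCRNA.290 (165 bases, chrII:102509-102673) had 418 FPKM in heat-stressed cells, against 998 FPKM in wild type cells, 297 FPKM in *mas5Δ* cells, against 1123 FPKM, and 459 FPKM in *ssa2Δ* cells, against 1013 FPKM. With excess Hsf1 it had 17.2 FPKM in *nmt1:hsf1* cells, against 253 FPKM. SPNCRNA.307 (123 bases) went up, with 27.1 FPKM in heat-stressed cells, against 11.1 FPKM, 44.7 FPKM in *mas5Δ* cells, against 12.5 FPKM, 26.6 FPKM in *ssa2Δ* cells, against 11.3 FPKM, and 206 FPKM in *nmt1:hsf1* cells, against 14.4 FPKM in wild type cells of minimal medium. The lower-expressed ones were SPNCRNA.1540, SPNCRNA.452 and SPNCRNA.774, which were higher, and SPNCRNA.280, which was lower.

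The most abundant pair lies near the left end of chromosome III. SPNCRNA.1094 (chrIII:23658-23889) had 923 FPKM in heat-stressed cells, against 1759 FPKM in wild type cells, 1515 FPKM in *mas5Δ* cells, against 1981 FPKM, and 533 FPKM in *ssa2Δ* cells, against 1787 FPKM. Its lowest value was 183 FPKM in *nmt1:hsf1* cells, against 2039 FPKM in wild type cells of minimal medium. SPNCRNA.1095, 29 bases away on the same strand, had 109 FPKM in *nmt1:hsf1* cells, against 834 FPKM, and 276 FPKM in *ssa2Δ* cells, against 590 FPKM. Within 100 kb of a chromosome end lay 30 of the lncRNAs. In *nmt1:hsf1* cells 12 of these 30 (40%) were past 2-fold lower, beside 23 of the other 177 (13.0%), and under heat 8 of 30 (26.7%), beside 29 of 177 (16.4%). In *ssa2Δ* cells 8 of 30 (26.7%) were lower, beside 19 of 177 (10.7%), and in *mas5Δ* cells 4 of 30 (13.3%), beside 13 of 177 (7.34%). Higher were 2 of the 30 under heat (6.67%, beside 15.8% of the other 177), 8 in *mas5Δ* cells (26.7%, beside 17.5%), 3 in *ssa2Δ* cells (10%, beside 13.6%) and 3 in *nmt1:hsf1* cells (10%, beside 32.8%). Over all genes 11.7% were higher and 8.58% lower under heat, 5.69% and 4.11% in *mas5Δ*, 8.96% and 3.40% in *ssa2Δ*, and 24.9% and 14.7% in *nmt1:hsf1* cells. SPNCRNA.1094 and SPNCRNA.1095 both count among the lower ones in *ssa2Δ* and *nmt1:hsf1* cells. Other genes near chromosome ends were not counted, so whether these shares are particular to lncRNAs was not tested.

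Agreement between conditions was counted only against *nmt1:hsf1*, which shares no library with the others. Of the 30 lncRNAs past 2-fold higher under heat, 15 were also higher in *nmt1:hsf1* cells (50% of the 30 and 24.6% of the 61), beside 46 of the other 177 (26%), and 4 were lower there. Of the 37 lower under heat, 14 were also lower in *nmt1:hsf1* cells (37.8% of the 37 and 40% of the 35), beside 21 of the other 170 (12.4%), and 9 were higher there. Of the 39 higher in *mas5Δ* cells 18 were higher in *nmt1:hsf1* cells (46.2% and 29.5%), beside 43 of the other 168 (25.6%), and 7 were lower there. Of the 27 higher in *ssa2Δ* cells 16 were (59.3% and 26.2%), beside 45 of the other 180 (25%), and 3 were lower there. Of the 17 lower in *mas5Δ* cells 7 were lower in *nmt1:hsf1* cells (41.2% and 20% of the 35), beside 28 of the other 190 (14.7%), and 3 were higher. Of the 27 lower in *ssa2Δ* cells 14 were (51.9% and 40%), beside 21 of the other 180 (11.7%), and 6 were higher. Both *mas5Δ* and *ssa2Δ* counts of higher lncRNAs include SPNCRNA.129, SPNCRNA.164, SPNCRNA.208 and SPNCRNA.460, which were at 0 in both wild type libraries. Over all genes 24.9% were higher and 14.7% lower in *nmt1:hsf1* cells. The same overlaps were not counted over all genes, so whether they are particular to these lncRNAs was not tested. Of all 207 lncRNAs, 69 were within 2-fold in every comparison, and 10 of these had a mean of at least 10 FPKM in all 4 tables. The steadiest of the 10 was SPNCRNA.105 (194 bases), with 167, 186 and 236 FPKM in heat-stressed, *mas5Δ* and *ssa2Δ* cells, against 182 FPKM in wild type cells of the heat stress table, and 198 FPKM in *nmt1:hsf1* cells, against 197 FPKM.

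Position next to a changed gene was then examined. The nearest listed gene lay a median of 134 bases away (0 to 1566), and closer than 100 bases for 82 lncRNAs. Of the 30 lncRNAs higher under heat, 13 had a nearest gene that was also past 2-fold higher (43.3%), beside 13 of the 140 within 2-fold (9.29%). In *ssa2Δ* cells it was 10 of 27 (37.0%), beside 8 of 153 (5.23%), and in *nmt1:hsf1* cells 17 of 61 (27.9%), beside 17 of 111 (15.3%). In *mas5Δ* cells it was 4 of 39 (10.3%), beside 8 of 151 (5.30%). For the lower lncRNAs it was 11 of 37 under heat (29.7%), beside 21 of 140 (15.0%), 5 of 17 in *mas5Δ* cells (29.4%), beside 6 of 151 (3.97%), 6 of 27 in *ssa2Δ* cells (22.2%), beside 10 of 153 (6.54%), and 14 of 35 in *nmt1:hsf1* cells (40%), beside 24 of 111 (21.6%). A neighbour can itself be one of these lncRNAs, as in SPNCRNA.1094 and SPNCRNA.1095, and then both count.

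SPNCRNA.1540 (chrII:2659605-2660100) lies 38 bases past the end of *hsp16*, a small heat shock protein gene, on the same strand. It had 7.10 FPKM in heat-stressed cells, against 2.34 FPKM in wild type cells, while *hsp16* had 19822 FPKM, against 68.1 FPKM. It had 6.79 FPKM in *nmt1:hsf1* cells, against 2.70 FPKM, and *hsp16* 12411 FPKM, against 165 FPKM. In *mas5Δ* cells it had 14.1 FPKM, against 2.63 FPKM, and *hsp16* 1069 FPKM, against 76.6 FPKM. In *ssa2Δ* cells it had 8.67 FPKM, against 2.37 FPKM, and *hsp16* 6733 FPKM, against 69.1 FPKM. Of the 4 stressed or mutant libraries, each as scaled in its own table, the lncRNA was highest in the one where *hsp16* was lowest.

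SPNCRNA.940, 56 bases head to head from SPAC4H3.08, had 28.1 FPKM in *nmt1:hsf1* cells, against 0.16 FPKM in wild type cells of minimal medium, and the coding gene had 1275 FPKM, against 13.0 FPKM. Under heat the lncRNA had 3.18 FPKM, against 0.12 FPKM, and the coding gene 23.5 FPKM, against 8.69 FPKM. This pair was picked after its values were seen.

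**Figure D5:**
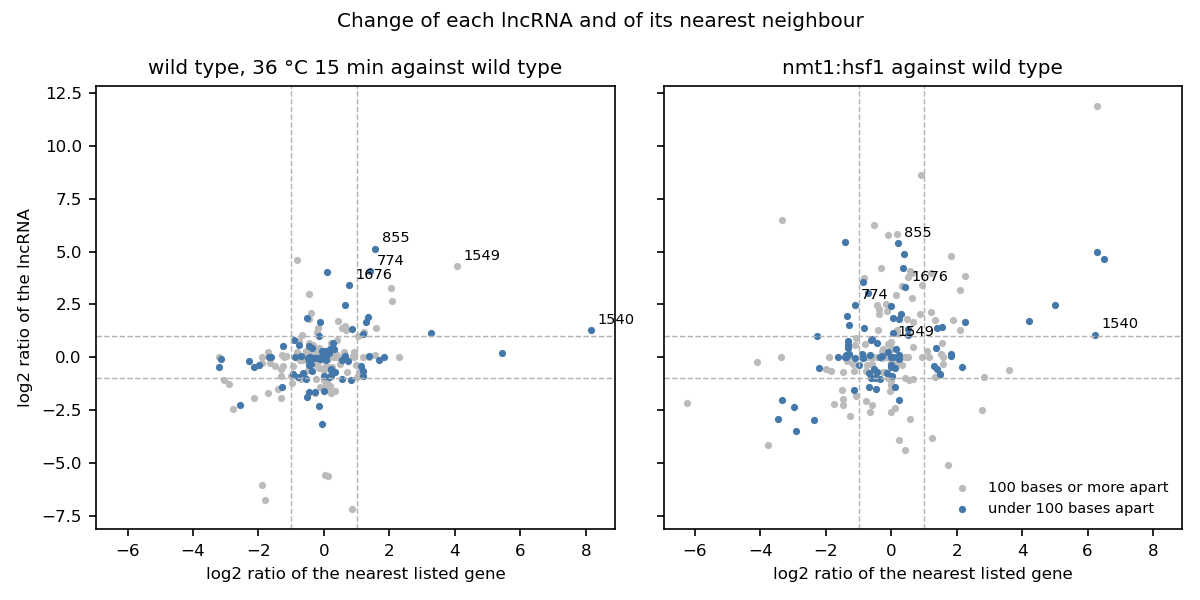
log2 ratio of each lncRNA (y axis) against that of its nearest listed gene (x axis), for heat-stressed wild type cells and for *nmt1:hsf1* cells, each with 1 added to both FPKM values; blue points lie under 100 bases from the neighbour, and dashed lines mark 2-fold. The numbers name SPNCRNA.774, SPNCRNA.855, SPNCRNA.1540, SPNCRNA.1549 and SPNCRNA.1676, and SPNCRNA.774 lies right of 0 under heat and left of 0 in *nmt1:hsf1* cells.

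The genes that act on such RNAs, 28 of the exosome, its adaptor complexes and the 5′ to 3′ exonucleases, were counted as a list. None was past 2-fold in *mas5Δ* cells, beside 5.69% of all genes higher and 4.11% lower, nor in *ssa2Δ* cells, beside 8.96% and 3.40%, with median log2 ratios of -0.15 and -0.17. Under heat 2 were lower and none higher, beside 8.58% and 11.7% of all genes, with a median of -0.35. Counts this small in 28 genes are near those shares. The helicase gene *mtr4* of the TRAMP complex had 28.4 FPKM in heat-stressed cells, against 72.1 FPKM in wild type cells, and the exosome subunit gene *rrp42* 42.8 FPKM, against 87.0 FPKM. With excess Hsf1 4 were higher and 1 lower, which is no larger a share than the 24.9% and 14.7% of all genes. *mmi1*, whose protein marks meiotic RNAs for decay, had 104 FPKM, against 24.0 FPKM in wild type cells of minimal medium, and the nuclear exonuclease gene *rrp6* 114 FPKM, against 51.6 FPKM. Of these 28 genes, 18 share their locus entry with other genes, among them *mtr4* and *rrp42*. No link between their levels and those of the lncRNAs was tested.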

How the data were processed

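Per the labels, total RNA was extracted with a Qiagen RNeasy kit and polyadenylated RNA was primed with random hexamers. The submitters' processing notes name FastQC, TopHat and Cuffdiff. Their versions and the genome build are not given in the sources used here. The authors deposited 4 tables of 2 libraries each with FPKM values from Cuffdiff. The tables also hold the authors' log2 fold changes, p-values, q-values and significance marks, which were not used. Their status column served for 1 alternative. No value column was left unmapped (0 columns), but the libraries of the *nmt1:hsf1* table were assigned by column order alone. Read counts are not given, so depth and counting error are unknown.

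The lncRNAs, gene lists and comparisons were chosen with earlier results of these data known. A pseudocount of 1 FPKM and a threshold of 2-fold were used. Named lncRNAs were those with a gene name, the 5 highest rises and 5 largest falls per comparison among those with a mean of at least 10 FPKM, the 5 of highest mean, and those past 2-fold the same way in all 4 tables with a mean of at least 10 FPKM in each, with neighbours past 2-fold of those described in full. Others are said to be chosen after their values were seen, or illustrate a count. Alternatives were pseudocounts of 0.1 and 5, a mean of at least 10 FPKM, centring on the median of all genes, status OK, and no pseudocount. Only lncRNAs of 200 bases and over, only those with no other RefSeq gene over them, and bins of wild type FPKM in the other medium (in place of mean FPKM), with and without length, were added after seeing the data. The counting was tested on simulated data. Python 3.11.15, numpy 2.4.6, pandas 2.3.3 and matplotlib 3.10.9 were used.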

Additional observations from a re-analysis of the deposited data

How the results depend on the processing

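Each count of lncRNAs past 2-fold and each median was recomputed under 6 other settings and 2 more added after seeing the data. Restriction to the 173 lncRNAs of 200 bases and over left every count within 1.5 times. A pseudocount of 5 FPKM gave 16 higher and 14 lower under heat, 17 and 6 in *mas5Δ*, 15 and 12 in *ssa2Δ*, and 20 lower in *nmt1:hsf1* cells. A pseudocount of 0.1 gave 26 lower in *mas5Δ* cells. Among the 56 to 65 lncRNAs with a mean of at least 10 FPKM, 12 were higher and 15 lower under heat, 13 and 7 in *mas5Δ*, 12 and 9 in *ssa2Δ*, and 27 and 16 in *nmt1:hsf1* cells, with medians of -0.13 under heat, 0.038 in *ssa2Δ* and 0.40 in *nmt1:hsf1* cells. Among the 87 with no other RefSeq gene over them, 12 were higher and 10 lower under heat (13.8% and 11.5%), 15 and 7 in *mas5Δ*, 13 and 10 in *ssa2Δ*, and 28 and 10 in *nmt1:hsf1* cells (32.2% and 11.5%). These last 2 settings count over fewer genes. Without a pseudocount the median was 0.041 in *ssa2Δ* and -0.051 in *nmt1:hsf1* cells, with status OK it was 0.28 in *nmt1:hsf1* cells, and after centring -0.10 there. Why the medians moved was not tested. Of the named lncRNAs, 22 of 176 ratios changed their side of 2-fold with a pseudocount of 5, 6 with 0.1 and 4 with centring, and no ratio past 2-fold changed sign. No paired analysis was possible because each condition has 1 library. Without replicates or read counts, none of these counts has an error, and low or short lncRNAs are the least certain.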
